A study of Mus musculus with 6 samples.

Results

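The 42 genes described here are the 39 Hox genes of the mouse and 3 transcription factors that set limb identity, *Tbx4*, *Tbx5* and *Pitx1*. They were chosen by symbol, as every protein-coding gene named Hoxa, Hoxb, Hoxc or Hoxd followed by a number in GENCODE release M21, plus those 3 factors. They make up 42 of the 56262 genes listed in the count table. Hox genes encode homeodomain transcription factors and lie in clusters A to D, in which genes of the same number form a paralogue group. Genes of low number lie at the 3′ end of a cluster and act in the front of the embryo, and genes of high number lie at the 5′ end and act in the rear of the trunk and in the outer limb. Connective tissue cells keep a pattern of Hox genes that records where in the body they arose. *Tbx4* and *Pitx1* are the factors of the hindlimb, and *Tbx5* is that of the forelimb.

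The data are RNA-seq counts of leg muscle, 3 samples from wild-type (WT) and 3 from *SYISL* knockout (KO) mouse fetuses of embryonic day 18.5. The KO mice lack *SYISL*, the gene of a long noncoding RNA located in an intron of *Synpo2*. KO dams were mated with KO males and WT dams with WT males, so the genotype of the fetus, that of the dam and the litter cannot be told apart. The labels name neither litters nor animals for the replicates, so p-values measure the spread between these samples, which may be technical. They also do not say whether fore- or hindlimbs were taken. No symbol of the annotation stands for *SYISL*, so the deletion was not checked in the counts.

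The samples held 82054811 to 102233181 counts, at which 3 counts, the limit that a count of 0 allows, equal 0.0284 to 0.0363 CPM (counts scaled to the size of the library). All 12 keratinocyte markers fell in KO at an adjusted p under 0.05, from a summed level of 16428 to 24523 CPM to one of 744 to 850 CPM. The 10 muscle markers were present in every sample, as the tissue label says, at a summed 17714 to 19874 CPM in WT and 37417 to 44988 CPM in KO. The 12 fibroblast markers summed to 45172 to 47869 CPM in WT and 54393 to 56124 CPM in KO. These marker levels move with the genotype in every comparison below, and their part in the results was not tested. In bulk RNA, fewer cells that carry a transcript and less of it per cell cannot be told apart.

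In WT muscle the Hox RNA was dominated by genes of the middle and 5′ part of the clusters. Levels are given as RPKM, the CPM divided by the exon length in kilobases, so that genes of different length can be compared. *Hoxc10* stood first among all 42 genes, with 21.2, 24.2 and 22.6 RPKM in the 3 WT samples. *Hoxa10*, its paralogue in cluster A, came next with 12.97, 14.02 and 13.24 RPKM, below every value of *Hoxc10*. Both take part in the patterning of the hindlimb and the lumbar spine. *Hoxa9* (9.39 ± 0.312 RPKM, SD, n = 3) and *Hoxd8* (9.08 ± 0.301) followed, and their WT ranges overlapped. The highest gene of cluster B was *Hoxb9*, with 3.82, 4.67 and 4.38 RPKM, well under the leading genes of the other clusters. Down the whole order, 11 of 41 neighbouring pairs had WT ranges that did not overlap, so most neighbours cannot be ranked beyond their spread. At the other end, *Hoxc12* held 0.0998 ± 0.0246 RPKM, and *Hoxb1* and *Hoxb13* had no more than 4 counts in any sample.

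**Figure D1:**
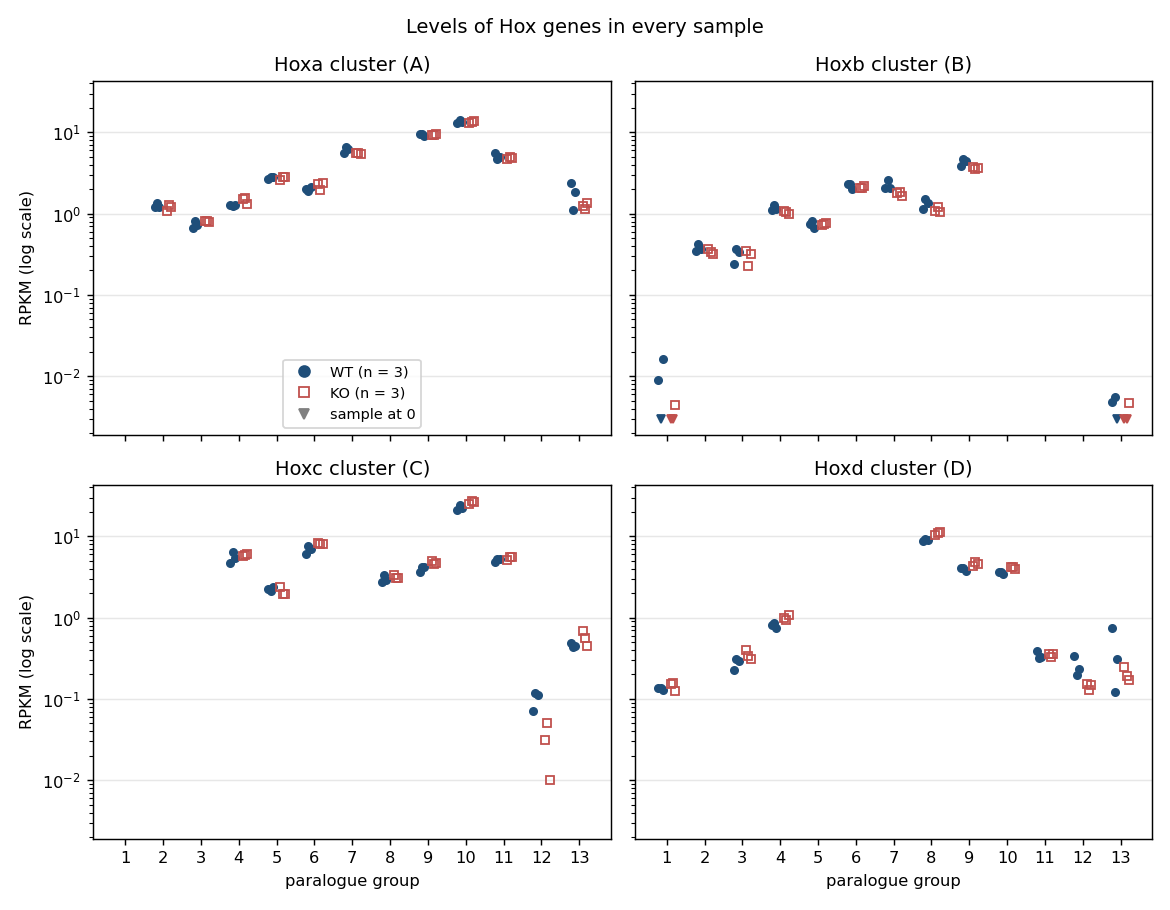
RPKM on a log axis against paralogue group for 38 of the 39 Hox genes, by cluster, with 1 point per sample (WT filled circles, KO open squares, n = 3 each) and triangles for samples at 0. In WT and KO the highest gene of each cluster lies in groups 8 to 10, with *Hoxc10* on top at 22.7 RPKM in WT. The climb up to these groups is not steady in every cluster. Levels at groups 12 and 13 are well below these genes, and in cluster D the drop comes at group 11 (*Hoxd10* 3.58 and *Hoxd11* 0.343 RPKM in WT).

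Summed by paralogue group, group 10 held 31.4% ± 0.326 (SD, n = 3) of all Hox RPKM in WT, ahead of group 9 with 17.2% ± 0.148 and group 8 with 10.6% ± 0.171. Groups 1 to 3, which act in the hindbrain and neck, held 3.02% ± 0.214 together. Group 12 held 0.283% ± 0.0482, and group 13, the genes of the hand and foot plate, 2.11% ± 0.864. The group 13 share varied among the WT samples, with 2.99% in replicate 1, 1.26% in replicate 2 and 2.09% in replicate 3. Groups 9 to 13 together held 59.4% ± 1.32 in WT and 59.7% ± 0.432 in KO (exact permutation test, two-sided, p = 0.8). The WT range enclosed the KO values. The difference of 0.302 percentage points turned to -1.71 without genes that share exonic bases, to -0.208 with CPM in place of RPKM and to -0.32 without WT replicate 2.

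Among the limb identity factors, those of the hindlimb were high and that of the forelimb was low. *Tbx4* (chromosome 11, 85886422 to 85916097) measured 7.93, 6.81 and 7.75 RPKM in WT and 7.20, 7.14 and 7.10 RPKM in KO. Its change was -0.07 ± 0.06 on the log2 scale (SE, adjusted p = 0.389), with a 95% interval of -0.21 to 0.07. *Pitx1* (chromosome 13, 55825051 to 55836192), which acts upstream of *Tbx4*, measured 7.45, 8.15 and 7.33 RPKM in WT and 6.97, 6.57 and 6.28 RPKM in KO. The groups did not overlap, and *Pitx1* fell by 0.21 on the log2 scale (SE 0.06, adjusted p = 0.0231), a change of -13.5%. *Tbx5* (chromosome 5, 119832668 to 119885219) measured 0.752, 0.916 and 0.869 RPKM in WT and 1.13, 0.896 and 1.02 RPKM in KO, ranges that overlap. Its difference of 0.26 ± 0.11 did not pass the test (adjusted p = 0.076), and it passed with upper-quartile factors (0.0303) and without KO replicate 2 (0.0367).

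Within each sample *Tbx4* stood above *Tbx5*, by a ratio of 10.5, 7.44 and 8.92 in the WT samples and 6.36, 7.97 and 6.98 in those of KO. The log2 ratio was 3.15 ± 0.25 in WT and 2.82 ± 0.16 in KO (exact permutation test, two-sided, p = 0.2, 3 samples a group). *Pitx1* over *Tbx5* was 9.90, 8.90 and 8.44 in WT and 6.16, 7.34 and 6.17 in KO, without overlap (exact p = 0.1, the smallest that 3 against 3 samples can give). Adjusted over the 37 shares and ratios tested this way, the smallest p was 0.154. In the order of WT levels, *Pitx1* and *Tbx4* took ranks 5 and 6 of the 42 genes and *Tbx5* rank 27.

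Between genotypes the Hox genes shifted little. Of the 42 genes, 39 passed the filter on low counts, and *Hoxb1*, *Hoxb13* and *Hoxc12* did not. Over these 39 the median log2 fold change of KO over WT was 0.01, against -0.0041 over the 22071 genes tested. At an adjusted p under 0.05, 7 genes were higher and 5 lower, or 30.8% of the 39, where 45.0% of all genes tested passed. By direction, 21.9% of all genes passed as higher and 23.1% as lower. With a fold change over 1.5 as well, edgeR called 0 genes higher and 2 lower (DESeq2 and limma-voom also called 0 higher), where 8.31% and 8.39% of all genes were, or 16.7% together. At an unadjusted p under 0.05 the counts were 8 higher and 7 lower, and of these 0 and 2 exceeded 1.5-fold. The 3 WT and 3 KO values did not overlap in 14 of the 39 genes, 8 higher and 6 lower, or 35.9%, where this held for 55.9% of all genes, 27.3% higher and 28.5% lower. For 31 of the 39 the whole 95% interval lay within a 1.5-fold change.

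**Figure D2:**
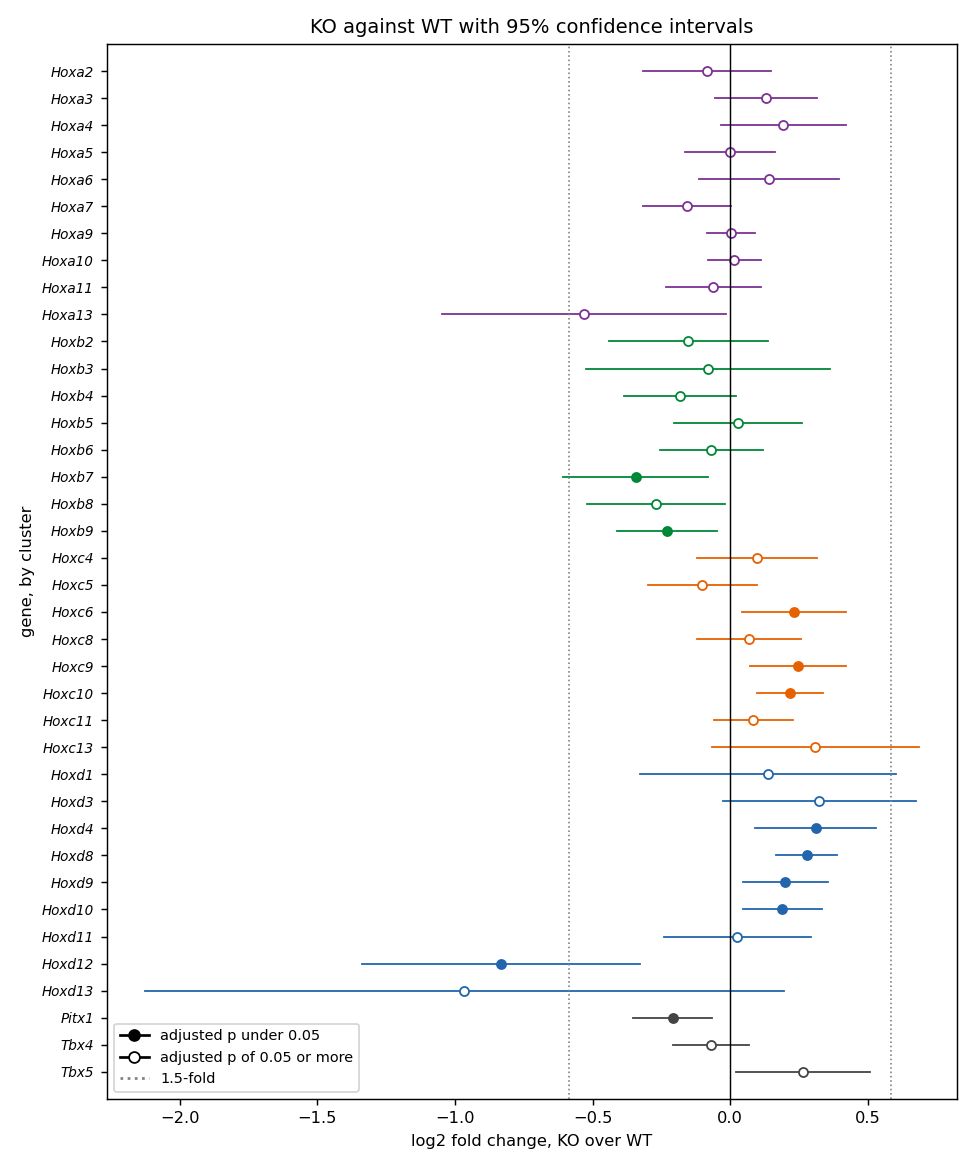
Log2 fold change of KO over WT with its 95% confidence interval for 38 of the 39 genes tested, ordered by cluster and number, with filled points for an adjusted p under 0.05 and dotted lines at 1.5-fold. Points of clusters C and D lie mostly to the right of 0 and those of cluster B to the left, and *Hoxd12* is a filled point beyond the dotted lines.

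Grouped by cluster, the KO means of clusters C and D were mostly higher and those of cluster B mostly lower. In cluster C, 7 of 8 tested genes had a higher KO mean, with a median of 0.16 on the log2 scale, and 3 passed as higher. In cluster D, 7 of 9 had a higher KO mean, with a median of 0.19, and 4 passed as higher and 1 as lower. In cluster B, 7 of 8 had a lower KO mean, with a median of -0.17, and 2 passed as lower. Cluster A was split, with 5 higher and 6 lower and a median of -0.00095. Genes that passed made up 25.0% of those tested in cluster B, 37.5% in cluster C and 55.6% in cluster D. Among all genes tested 45.0% passed, 21.9% as higher and 23.1% as lower. The genes of a cluster lie side by side and, in part, share transcribed sequence, so they are not independent of each other.

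The make-up of the Hox RNA, a measure that does not depend on how libraries are scaled, was compared per sample. The WT samples held 36.6, 34.1 and 35.4% of it on cluster A and the KO samples 32.7, 32.5 and 33.0%. Cluster B held 9.68, 10.6 and 9.88% for WT and 8.57, 8.26 and 8.19% for KO. Cluster C, the largest share, held 37.9, 40.8 and 40.2% for WT and 42.4, 42.7 and 42.3% for KO. Cluster D held 15.8, 14.5 and 14.6% for WT and 16.3, 16.6 and 16.5% for KO. The WT and KO values of a cluster did not overlap in any of the 4, with clusters A and B lower and clusters C and D higher in KO. Each of these tests gave an exact permutation p of 0.1, the smallest possible with 3 samples a group, and 0.154 when adjusted. The shares of a sample add up to the whole, so they are not independent of each other. The summed Hox level itself was 126 ± 5.21 RPKM in WT and 133 ± 1.41 in KO, with overlap.

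**Figure D3:**
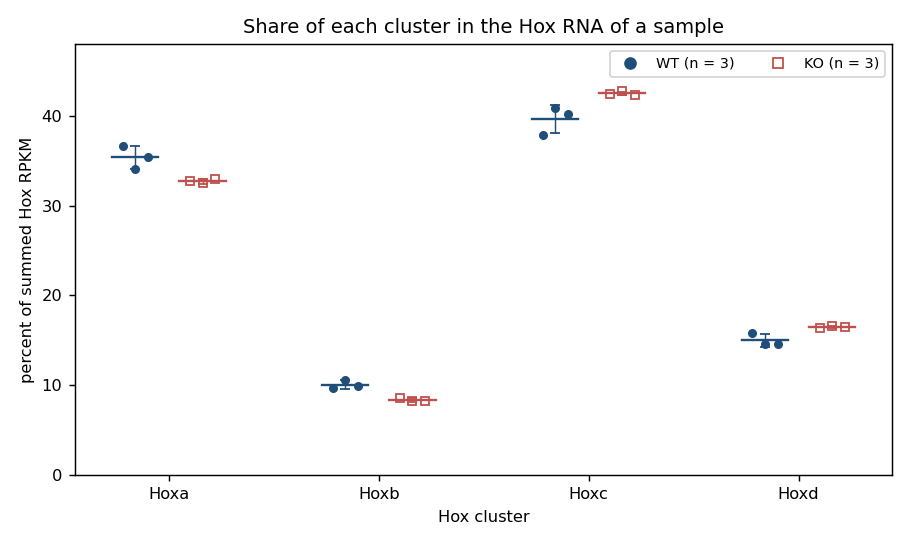
Percent of the summed Hox RPKM held by each cluster, with 1 point per sample (WT filled circles, KO open squares) and bars for the mean and SD of 3 samples. Clusters A and B sit lower and clusters C and D higher in KO, from a mean of 39.6 to 42.5% for cluster C.

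*Hoxd12*, which was called lower, lies at the 5′ end of cluster D (chromosome 2, 74675013 to 74677705, plus strand) and acts in the outer limb. Its counts were 80, 41 and 63 for WT and 36, 31 and 37 for KO, or 0.334, 0.196 and 0.236 against 0.152, 0.128 and 0.150 RPKM. The groups did not overlap, and *Hoxd12* fell by 0.83 on the log2 scale (SE 0.22, adjusted p = 0.0136), a change of -43.9%. Without KO replicate 2 the adjusted p was 0.0549, and in 13 of 14 alternatives it stayed under 0.05. *Hoxc12*, its paralogue, did not pass the filter on low counts, with counts of 7, 10 and 12 for WT and 3, 5 and 1 for KO, again without overlap. With no filter it was lower by edgeR (-1.67, adjusted p = 0.0334), as without WT replicate 1 (0.0293) or KO replicate 2 (0.0251), where it passed the filter, but not without KO replicate 1 (0.0655) or 3 (0.0968) or with DESeq2 (0.112). The share of group 12 in the Hox RNA was 0.333, 0.238 and 0.277% in WT and 0.139, 0.134 and 0.120% in KO (exact permutation p = 0.1).

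The genes of group 13 did not pass the main test. *Hoxa13* (chromosome 6, 52257694 to 52260880), which is needed for the hand and foot plate, was counted 559, 224 and 485 times in WT samples and 287, 267 and 322 times in KO samples. Its difference was -0.53 ± 0.23 on the log2 scale (adjusted p = 0.0874). *Hoxd13* (chromosome 2, 74668310 to 74671599), which acts with it in the digits, was counted 176, 25 and 81 times in WT samples and 58, 45 and 41 times in KO samples, and its difference was -0.97 ± 0.51 (adjusted p = 0.159). In both genes WT replicates 1 and 3 lay above every KO sample and WT replicate 2 lay below every KO sample. Without WT replicate 2 both passed, *Hoxa13* at -0.78 (adjusted p = 0.000702) and *Hoxd13* at -1.37 (adjusted p = 0.00907), and without WT replicate 1 they came to -0.27 (0.319) and -0.13 (0.805). *Hoxa13* also passed with no filter (adjusted p = 0.0156), with DESeq2 (0.0349) and with library size only (0.0486), and *Hoxd13* with no filter (0.045). WT replicate 2 also had the highest keratinocyte marker sum, 24523 CPM. Its sums were the lowest of the WT samples for tendon (1046 CPM), cartilage and bone (1328 CPM) and muscle markers (17714 CPM). The part of these marker levels in the values of *Hoxa13* and *Hoxd13* was not tested. *Hoxc13*, which is active in hair and nail, was counted 114, 89 and 116 times in WT samples and 160, 133 and 106 times in KO samples (0.31 ± 0.17, adjusted p = 0.166, and 0.0409 without KO replicate 3). Of 11 hair and nail markers, 7 were tested, of which 3 rose and 2 fell, with a median of 0.30. Those that rose were the hair keratins *Krt71* (3.22 ± 0.24), *Krt35* (3.05 ± 0.32) and *Krt27*, the last with 3, 1 and 3 counts for WT and 44, 42 and 44 for KO. A hair keratin was also among those that fell, *Krt32* (-3.73 ± 0.48), with 45, 32 and 32 counts for WT and 1, 6 and 1 for KO. *Foxn1*, a factor of hair and skin, fell by 2.87 (SE 0.19), from 4.94 to 0.675 CPM on average, and made up most of the summed level in WT, 5.30 to 7.03 CPM against 3.09 to 3.51 CPM in KO. The part of these cells was not tested.

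**Figure D4:**
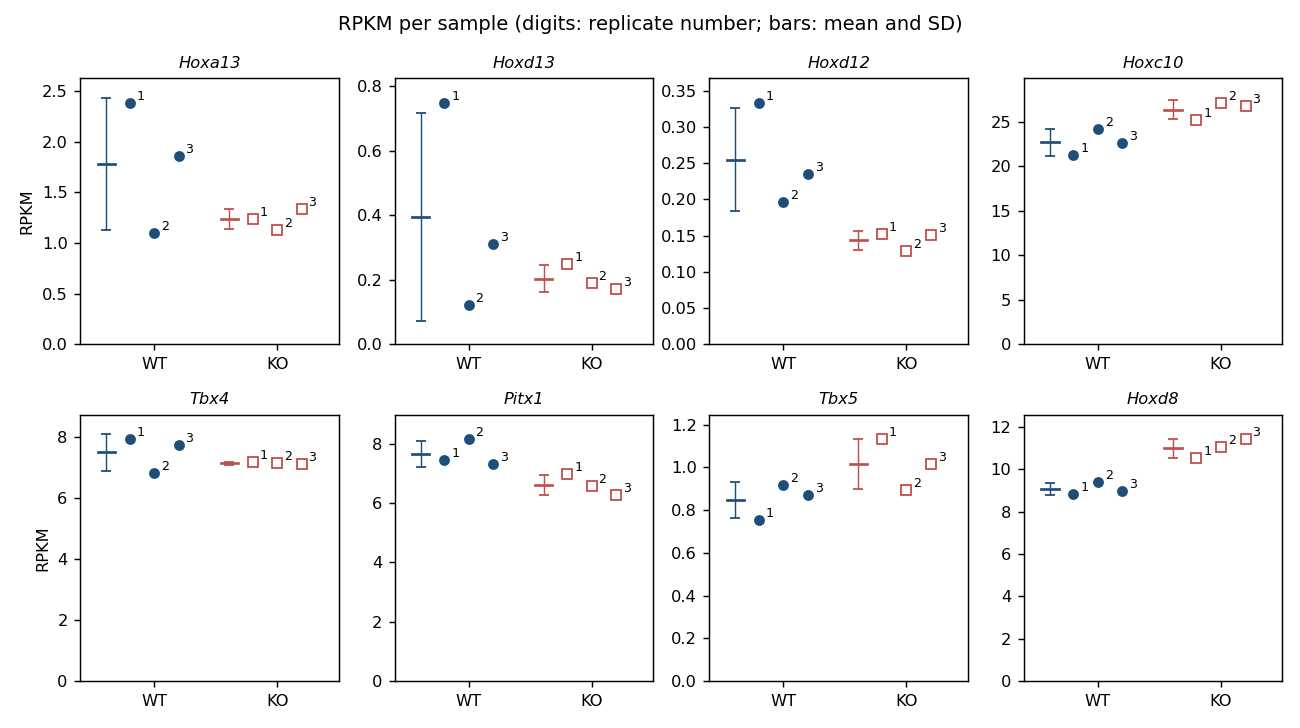
RPKM in each sample for 8 genes (WT filled circles, KO open squares, digits for the replicate, bars for the mean and SD of 3 samples), with every axis from 0. *Hoxa13* and *Hoxd13* spread widely in WT, with *Hoxd13* from 0.122 to 0.749 RPKM, whereas the KO samples lie close together, and *Hoxd12* and *Pitx1* are lower and *Hoxd8* and *Hoxc10* are higher in every KO sample.

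The 7 genes that rose were *Hoxc6*, *Hoxc9*, *Hoxc10*, *Hoxd4*, *Hoxd8*, *Hoxd9* and *Hoxd10*, by 0.19 to 0.31 on the log2 scale. *Hoxd8* (chromosome 2, 74704615 to 74707933), which is expressed in the trunk and in the developing limb, measured 8.84, 9.42 and 8.98 RPKM in WT and 10.54, 11.04 and 11.43 RPKM in KO. It rose by 0.28 ± 0.05 (adjusted p = 0.00148), or by 21.2%, with no overlap. *Hoxc10* (chromosome 15, 102966796 to 102971893) measured 25.2, 27.2 and 26.7 RPKM in KO, above each WT value, and rose by 0.22 ± 0.05 (adjusted p = 0.00915), or by 16.2%. Both kept an adjusted p under 0.05 in 14 of 14 alternatives. The other 5 kept it in 5 to 9 of 14, and the count of genes higher at that threshold fell from 7 to 2 when libraries were scaled by size alone and to 4 with DESeq2. Of the exon bases of *Hoxd4*, 52.3% are shared with other genes of the cluster, so its counts are uncertain. As a ratio within the sample, *Hoxc10* over *Hoxa10* was 1.64, 1.73 and 1.70 in WT and 1.91, 2.01 and 1.92 in KO, and *Hoxd8* over *Hoxa9* was 0.921, 0.987 and 0.994 in WT and 1.13, 1.18 and 1.199 in KO. *Hoxa9* (0.0033 ± 0.04) and *Hoxa10* (0.01 ± 0.04) had KO and WT ranges that overlapped, with 95% intervals of -0.08 to 0.09 and -0.08 to 0.11.

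The 2 genes of cluster B that fell, *Hoxb7* and *Hoxb9*, are of paralogue groups 7 and 9 and take part in the patterning of the trunk. *Hoxb7* measured 2.05, 2.63 and 2.05 RPKM in WT and 1.78, 1.86 and 1.64 RPKM in KO, and fell by 0.34 (SE 0.12, adjusted p = 0.0369). *Hoxb9* (chromosome 11, 96271457 to 96276595) measured 3.79, 3.53 and 3.66 RPKM in KO, below each WT value, and fell by 0.23 (SE 0.08, adjusted p = 0.0424). *Hoxb8*, which lies next to *Hoxb7*, measured 1.155, 1.506 and 1.366 RPKM in WT and 1.08, 1.19 and 1.06 RPKM in KO, ranges that overlap (-0.27 ± 0.11, adjusted p = 0.0747). It passed with library size only (0.0258) and without WT replicate 1 (0.0197). *Hoxb7* kept an adjusted p under 0.05 in 9 and *Hoxb9* in 8 of 14 alternatives, and *Pitx1* in 10, and none of these genes changed by over 1.5-fold.

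The promoters show the sequence next to the start of some of these genes. RefSeq starts on GRCm38.p6 were matched for 23 of the 42 genes, and the 250 bases before each start were read. Among the genes that passed the test or lie beside them, 4 are printed 5′ to 3′ on the strand of the gene, with matches to TTTATNG, a form of site that posterior Hox proteins bind, and to TGATNNAT, a joint site of Hox and Pbx proteins, in capitals on either strand. They are 1 gene that fell, 2 that rose and *Hoxb8*, which did not pass.
Hoxd12 (+ strand, chr2:74674763-74675012): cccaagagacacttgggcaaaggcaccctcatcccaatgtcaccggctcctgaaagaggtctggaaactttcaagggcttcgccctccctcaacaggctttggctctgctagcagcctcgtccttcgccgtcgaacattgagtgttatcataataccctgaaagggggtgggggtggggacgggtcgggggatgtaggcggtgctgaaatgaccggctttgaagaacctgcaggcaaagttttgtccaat
Hoxd8 (+ strand, chr2:74704365-74704614): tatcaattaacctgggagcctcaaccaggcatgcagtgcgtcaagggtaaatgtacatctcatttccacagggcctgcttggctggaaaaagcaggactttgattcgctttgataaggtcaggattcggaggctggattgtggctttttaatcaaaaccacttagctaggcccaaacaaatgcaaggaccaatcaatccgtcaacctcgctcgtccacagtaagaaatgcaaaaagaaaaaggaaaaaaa
Hoxd4 (+ strand, chr2:74721728-74721977): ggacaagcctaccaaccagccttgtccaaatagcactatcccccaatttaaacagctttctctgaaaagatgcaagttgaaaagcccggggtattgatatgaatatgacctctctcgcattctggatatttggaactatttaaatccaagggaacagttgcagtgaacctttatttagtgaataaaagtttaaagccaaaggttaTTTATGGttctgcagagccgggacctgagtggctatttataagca
Hoxb8 (+ strand, chr11:96281655-96281904): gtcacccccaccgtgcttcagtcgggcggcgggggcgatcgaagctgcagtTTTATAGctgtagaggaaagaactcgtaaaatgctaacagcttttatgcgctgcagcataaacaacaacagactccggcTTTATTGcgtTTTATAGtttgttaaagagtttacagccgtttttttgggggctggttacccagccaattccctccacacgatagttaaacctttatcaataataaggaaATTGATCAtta
TTTATNG was found in 2 of the 25 promoters of these genes, those of *Hoxb8* and *Hoxd4*, and in 9.81% of 32851 promoters of the same length. TGATNNAT was found in 4, those of *Hoxa2*, *Hoxb1*, *Hoxb8* and *Hoxd11*, and in 7.68% of all. No match of one motif overlapped a match of the other. The promoter of *Hoxd8*, which rose, and that of *Hoxd12*, which fell, hold neither. The 25 promoters had a median of 12 CpG dinucleotides and all promoters a median of 6, with 35 in that of *Hoxa13*, 31 in that of *Hoxd13* and 3 in that of *Hoxd4*.

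The Hox clusters also hold microRNA genes that pair with Hox messages. The mature forms are given 5′ to 3′ with the seed, bases 2 to 8, in capitals, and each pair shares its seed.
miR-196a-5p: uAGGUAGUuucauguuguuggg
miR-196b-5p: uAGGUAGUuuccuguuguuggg
miR-10a-5p: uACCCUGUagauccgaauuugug
miR-10b-5p: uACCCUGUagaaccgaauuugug
A match to the miR-196 seed, ACTACCT, was present in the longest annotated 3′ UTR of 10 of the 42 genes and in 6.11% of 20997 genes. A match to the miR-10 seed, ACAGGGT, was present in 5 of the 42 and in 12.5% of 20997. Sites opposite miR-196a are shown on mm10 and 5′ to 3′, with the seed match in capitals. They are of *Hoxb7*, which fell, and of 2 genes that did not pass. These are *Hoxa7* (-0.16 ± 0.07, adjusted p = 0.102) and *Hoxc8* (0.07 ± 0.08, adjusted p = 0.555), whose further matches are not shown.
Hoxb7 (+ strand, chr11:96289784-96289805): ctgtaaaaaaatatACTACCTa
Hoxa7 (- strand, chr6:52215210-52215231): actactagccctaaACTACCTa
Hoxc8 (+ strand, chr15:102992976-102992997): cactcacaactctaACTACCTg
In *Hoxb8* no exact seed match was found, and the stretch below pairs with 21 of the 22 bases of miR-196a, with the paired bases in capitals and the lower-case base opposite a U as a G:U pair inside the seed.
Hoxb8 (+ strand, chr11:96284888-96284909): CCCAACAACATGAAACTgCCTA
No other 3′ UTR of the 20915 scanned without gaps reached as many pairs, where the median of the best stretch per UTR was 13. Of the 9 tested genes with a miR-196 seed match, 2 passed as lower, among them *Hoxb7*, and 0 as higher, with a median of -0.07 on the log2 scale, and of the other 30, 3 passed as lower and 7 as higher, with a median of 0.06. This difference was not tested, and among all genes tested 21.9% passed as higher and 23.1% as lower. Counts on the hairpin gene *Mir196a-1* were 40, 41 and 55 for WT and 57, 47 and 38 for KO, and no mature microRNA was measured.

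Noncoding and other genes inside the clusters were read beside the Hox genes. For comparison with the counts below, 21.9% of all genes tested passed as higher and 23.1% as lower. Of 46 genes inside the 4 clusters that are not Hox genes, 25 were tested, 1 passed as higher and 2 as lower. *Hotair*, a noncoding RNA between *Hoxc11* and *Hoxc12*, rose by 0.24 ± 0.08 (adjusted p = 0.033), and *Hoxb3os*, an antisense RNA, fell by 0.43 (SE 0.13, adjusted p = 0.022). The noncoding *9530018H14Rik*, next to *Hoxa13*, fell by 0.79 (SE 0.26, adjusted p = 0.0345), with groups that overlapped. It measured 0.866, 0.411 and 0.796 CPM in WT and 0.427, 0.409 and 0.370 CPM in KO, so WT replicate 2 lay within the KO range. Of 16 protein-coding genes within 200 kb of a cluster, 12 were tested, 1 passed as higher and 6 as lower. The 1 that rose, *Atp5g1*, a subunit gene of the mitochondrial ATP synthase beside cluster B, did so by 0.68 ± 0.07 (adjusted p = 3.9e-05).

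The partners and regulators of Hox proteins were described by lists. Genes said to rise or fall had an adjusted p under 0.05, which 21.9% of all genes tested had as higher and 23.1% as lower. Of the 9 TALE cofactors, which bind DNA together with Hox proteins, 3 rose and 3 fell, by no more than 0.26 on the log2 scale. The largest rises were those of *Pknox2* (0.26 ± 0.05) and *Meis3* (0.20 ± 0.06). The largest falls were those of *Pbx3* (-0.19 ± 0.04) and *Meis2* (-0.19 ± 0.06), and the median of the 9 was 0.01. Of 19 regulators of Hox genes, chromatin proteins apart from the secreted ligand *Gdf11*, 2 rose and 9 fell, with a median of -0.12. *Gdf11* was among those that fell (-0.22 ± 0.06). Of the list, the Polycomb subunits *Cbx2* (-0.67 ± 0.08) and *Cbx7* (-0.53 ± 0.13) fell most. Of 13 tested T-box and Pitx relatives of the limb factors, 4 rose and 1 fell, with a median of 0.08. Among those that rose were *Tbx1* (0.48 ± 0.07), which acts in head muscle, *Tbx15* (0.33 ± 0.04) and the immune factor *Tbx21* (1.44 ± 0.29), whereas *Tbx3* fell by 0.15 (SE 0.05).

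Genes that pattern the limb bud or mark its muscle and connective tissue were described in the same way, beside the 21.9% of all genes tested that rose and the 23.1% that fell. Of 35 tested limb patterning genes, 9 rose and 11 fell, with a median of -0.09. Among the genes that passed, the changes furthest from 0 were those of *Wnt7a*, the dorsal signal of limb ectoderm (-3.06 ± 0.24), *Irx3* (-1.34 ± 0.14), the ligand *Bmp2* (-1.12 ± 0.06) and *Dlx5* (-0.82 ± 0.10). The keratinocyte markers given above, with a median of -3.85, moved with these genes, and their part was not tested. Of 15 tested factors of limb muscle precursors and connective tissue, 5 rose and 1 fell, with a median of 0.07. *Osr2*, of connective tissue, rose by 0.60 ± 0.06, *Eya1* by 0.50 ± 0.08 and *Cxcr4* by 0.39 ± 0.05, and *Pax3*, a factor of migrating muscle precursors, fell by 0.72 (SE 0.19). Over the same samples 10 of 12 fibroblast markers rose, with a median of 0.28, and 7 of 10 muscle markers rose and 2 fell, with a median of 0.79. Of 10 cartilage and bone markers, 2 rose and 7 fell, with summed levels of 1328 to 1424 CPM in WT and 1176 to 1241 CPM in KO. Of the markers of other cells, 4 of 7 for tendon, 5 of 7 for endothelium and 6 of 6 for macrophages rose and 0 fell, and the macrophage markers summed to 246 to 260 CPM in WT and 409 to 455 CPM in KO. Of 6 smooth muscle markers 4 rose and 1 fell, of 5 Schwann cell markers 3 rose and 1 fell, and of 6 tested neuron markers 1 rose and 3 fell. The part of these cells in the levels of the Hox genes was not tested.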

How the data were processed

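RNA-seq counts of fetal leg muscle were used, from 3 WT and 3 KO samples. Per the methods and the submitters' processing notes, the authors trimmed paired-end reads with Trim Galore 0.6.6, mapped them to mm10 with HISAT2 2.2.1 and counted them with featureCounts 2.0.1. The deposited values are whole-number counts for each gene, without normalization or filter, and the series table holds the same values as the files of the samples. The annotation used for counting, the strand setting and whether reads or pairs were counted are not given in the sources used here, so reads of overlapping or antisense genes cannot be assigned with certainty. Of the 56262 gene IDs, 55227 matched GENCODE M21, which supplied symbols, positions and exon lengths, and RPKM values rest on these lengths.

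Counts were analysed in R 4.3.3 with edgeR 4.0.16 (filterByExpr, TMM, quasi-likelihood F-test on genotype), with Benjamini-Hochberg adjustment over the 22071 genes tested. A call needed a fold change over 1.5 besides an adjusted p under 0.05. Shares and ratios per sample were compared by two-sided exact permutation tests (scipy 1.17.1). The tests were run on simulated data first. The genes and lists were chosen with earlier results of these data known. Values in every sample are given for genes called, for Tbx4, Tbx5 and Pitx1, for the highest gene of each cluster and for genes beside them, and from each list up to 4 genes with the largest change that passed. For the hair and nail markers every gene that passed is named. Alternatives were RLE, upper-quartile or no scaling factors, other filters and thresholds, DESeq2 1.42.0, limma-voom (limma 3.58.1), a replicate block and leaving out each sample. Intervals and floors cover counting error and the spread of these samples only. The values of some genes are not reported here.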

Additional observations from a re-analysis of the deposited data

How the results depend on the processing

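Hoxd8 and Hoxc10 kept their direction and an adjusted p under 0.05 in all 14 alternatives, which were 8 other scalings, filters, tools or designs and 6 analyses that left out 1 sample. Over the 39 genes and 14 alternatives, 462 of 546 values kept their direction and side of the threshold, 51 fell short of it, 14 newly passed it and 19 changed sign. The count called higher stayed at 0. The count called lower, 2, became 4 with no filter and 0 at a fold change over 2, and ranged from 2 to 4 when a sample was left out (4 without WT replicate 2). The count passing as higher, 7, became 2 with library size only, 4 with DESeq2 and 2 with the replicate block, and ranged from 2 to 7 when a sample was left out. The count passing as lower, 5, became 2 with upper-quartile factors, 8 with library size only and 8 with no filter, and ranged from 2 to 8 when a sample was left out. The cause of these changes was not tested. Deviations from the group means in samples of the same number had correlations of -0.20, -0.13 and 0.05 over all genes tested. Samples of different number were not compared in this way, so these values cannot decide whether the numbers pair samples.

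The KO minus WT difference in the share of groups 9 to 13, 0.302 percentage points, became -1.71 without genes that share exonic bases, a set that lacks Hoxc10. The WT share of group 10, 31.4%, became 28.0% with CPM in place of RPKM. Values that changed sign lay near 0, and none of them passed. With library size only, Hoxa10 became -0.054, Hoxa9 -0.065, Hoxb5 -0.0403 and Hoxd11 -0.043. With upper-quartile factors Hoxa11 became 0.0053 and Hoxa5 0.067, and Hoxa5 became 0.0026 with RLE factors and 0.00097 with DESeq2. With 1 sample left out, Hoxa10 ranged from -0.0101 to 0.046, Hoxa11 from -0.12 to 0.019, Hoxa5 from -0.0298 to 0.044, Hoxa9 from -0.025 to 0.018, Hoxb3 from -0.24 to 0.0803, Hoxb5 from -0.039 to 0.091 and Hoxd11 from -0.028 to 0.11. Library size only moved the median of all genes to -0.073 and upper-quartile factors moved it to 0.064. Depth limits Hoxb1, Hoxb13 and Hoxc12, with at most 12 counts in any sample.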
